A study of Mus musculus with 16 samples.

Results

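Gene expression in the injured mouse kidney was compared between PJ34 and vehicle, over the 7546 of 40472 genes in the table whose level in CPM (a gene's share of a library's counts, scaled to a fixed total) averaged 20 or more across the 8 injured libraries. All of these libraries came from whole kidneys of male C57BL/6 mice aged 12 weeks that had undergone ischemia reperfusion, surgery in which the blood supply of the kidney is stopped and then let back. Group IRP had received PJ34, an inhibitor of poly(ADP-ribose) polymerases, and group IRV had received vehicle, with 4 libraries each. Uninjured mice of the same strain, sex and age that received PJ34 (group NP) or vehicle (group NV), with 4 libraries each, gave the baseline and shared the estimate of the spread. The study asked what PJ34 does to the kidney in the longer term, and the labels give neither the dose nor the day of collection. They number the replicates without saying that each is a separate animal, so that all p-values below measure the spread between libraries.

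Poly(ADP-ribose) polymerases (PARPs) bind broken DNA and build chains of ADP-ribose from NAD+, which recruits repair proteins. When DNA damage is extensive, as when oxygen returns to an ischemic tissue, overactive PARP1 can drain NAD+ and with it ATP. In the kidney the proximal tubule, which lives on mitochondrial fatty acid oxidation, is the segment most prone to this injury. Injured tubules switch off transport and metabolic genes, switch on genes such as Havcr1 and Lcn2, and either recover or give way to inflammation and fibrosis.

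The injured libraries did not have equal depth. The 4 IRP libraries held 4963638 to 6008832 counts, and IRV replicates 3 and 4 held 5365139 and 6169748. IRV replicates 1 and 2 held 973812 and 1659983, near the 1161138 to 1639849 of the uninjured libraries. A gene at 20 CPM thus rested on 19.5 counts in IRV replicate 1 and on 123 in IRV replicate 4. The shallow libraries also had another make-up. A group of 11 unnamed gene models took 25.6% and 15.7% of the counts of IRV replicates 1 and 2, against 0.749% to 1.52% in the 6 deep injured libraries. Olfactory and other chemosensory receptor genes, which a kidney is not known for, summed to 9989 and 6274 CPM in the former and to 330 to 634 CPM in the latter. Every comparison was therefore made over all 8 libraries and again over the 6 deep ones. Kidney markers were abundant in all injured libraries. Slc34a1, the phosphate transporter of the proximal tubule, lay between 1139 and 2330 CPM, and Umod, the loop of Henle product uromodulin, between 1005 and 1753 CPM.

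Over the 8 libraries no gene passed the test between PJ34 and vehicle. The edgeR quasi-likelihood test called 0 of the 7546 genes at an adjusted p under 0.05, which was 0% of all 13614 genes tested too, and the smallest adjusted p was 0.0734. At an unadjusted p under 0.05 the test gave 154 of the 7546 genes as higher under PJ34 (2.04%) and 213 as lower (2.82%), where 1.39% of all tested genes were higher and 12.1% lower. Of the 213 lower genes, 85 were unnamed gene models, pseudogenes, chemosensory receptors or immunoglobulin or T cell receptor segments. The level limit averages all 8 injured libraries, so high values in IRV replicates 1 and 2 alone can carry a gene past it. A gene that enters in this way is lower in IRP by that choice, so the counts of lower genes here and below are in part set by the limit. limma-voom called no gene either, with 675 genes at an unadjusted p under 0.05, but DESeq2 called 1282 genes, 1277 of them lower, of which 122 were among the 7546. Without IRV replicate 3 or without IRV replicate 4, which leaves the shallow libraries the larger share of the vehicle group, edgeR called 1460 genes each time. Nearly all of those were lower under PJ34, 1451 and 1447 respectively. Leaving out any of the other 6 libraries gave no call.

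Differences were small as well as uncalled. The log2 difference, IRP minus IRV, had a median of 0.06 over the 7546 genes and lay between -0.27 and 0.29 for the middle 90% of them, and 110 genes exceeded 1 in size. Its sign was positive for 67.1% of the genes, a share that was 51.2% with depth as a covariate, 81.6% with scaling by library totals and 86.1% with no filter on low counts. A difference of 1 on this scale is 2-fold and the middle 90% of genes stayed short of it.

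The intervals say how large a difference the libraries could still hide. The 95% interval of a gene's log2 difference lay wholly within 1 of 0, that is within a 2-fold change in either direction, for 7291 of the 7546 genes (96.6%), against 76.7% of all genes tested. A tighter bound of 0.5 was met by 4763 genes (63.1%). The median half-width of the interval was 0.32. The share bounded within 1 was 95.5% for genes at 20 to 50 CPM, 98.2% at 50 to 200 CPM and 95.9% above 200 CPM. These are intervals for single genes. When they were widened to cover all 7546 genes at once, 2734 genes (36.2%) still lay within 1. Of the 255 genes whose interval reached past 1, it did so on the lower side alone for 163, on the upper side alone for 78 and on both for 14. Among the 255 were 124 unnamed gene models, pseudogenes, chemosensory receptors or immunoglobulin or T cell receptor segments. Of the 255, 186 were higher in the shallow than in the deep IRV libraries.

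**Figure D1:**
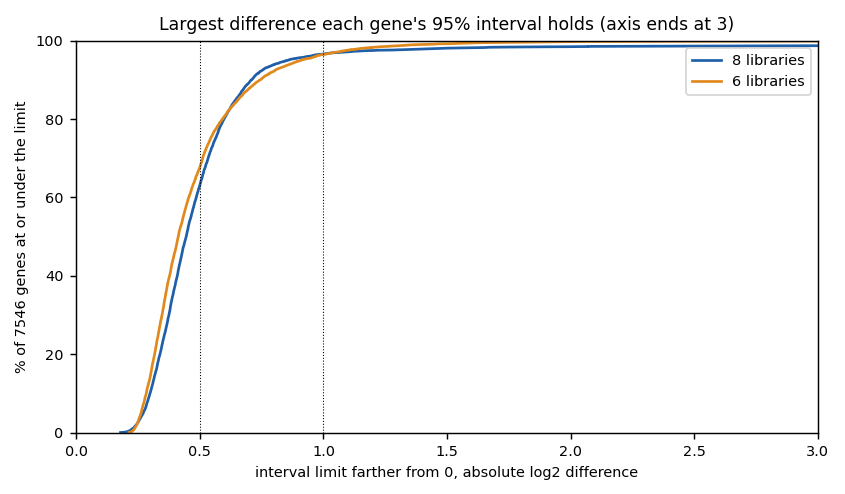
For each of the 7546 genes, the limit of the 95% interval that lies farther from 0 (x axis, absolute log2 difference) against the percentage of genes at or under it (y axis), for 8 and for 6 libraries. Both curves pass a bound of 1 near 96.6% and 96.5% of genes.

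Over the 6 deep libraries no gene passed the test either. With IRV replicates 3 and 4 as the only vehicle libraries, edgeR called 0% of the 15339 genes tested and none of the 7546, whose smallest adjusted p was 0.99986. At an unadjusted p under 0.05, 51 of the 7546 genes were higher (0.676%) and 69 lower (0.914%), where 1.02% of all tested genes were higher and 0.945% lower. The median log2 difference of the 7546 genes was 0.00, 50.6% were positive, the middle 90% lay between -0.22 and 0.24, and 6 genes exceeded 1 in size. Scaled by library totals instead of TMM, the median was -0.06 and 30.6% were positive. limma-voom called none, with 321 genes at an unadjusted p under 0.05. DESeq2 called 4 genes, of which 3 were unnamed gene models. The fourth was Zbtb16, a zinc finger transcription factor, at -1.67 ± 0.36 (SE; DESeq2, adjusted p = 0.0154). Zbtb16 fell below the level limit of 20 CPM, and only 1 of the 4, the gene model Gm49015, was among the 7546 genes. These 4 genes were picked out after their values were seen. With 2 vehicle libraries the median half-width of the interval was 0.31, and 7282 of the 7546 (96.5%) were bounded within 1 and 5112 (67.7%) within 0.5. Widened to cover all genes at once, they bounded 44. Of the 367 genes among the 7546 with an unadjusted p under 0.05 over 8 libraries, 48 had one over the deep libraries too. The 2 comparisons share all of the IRP libraries and IRV replicates 3 and 4, so some overlap is built in. The same count over all tested genes was not made.

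**Figure D2:**
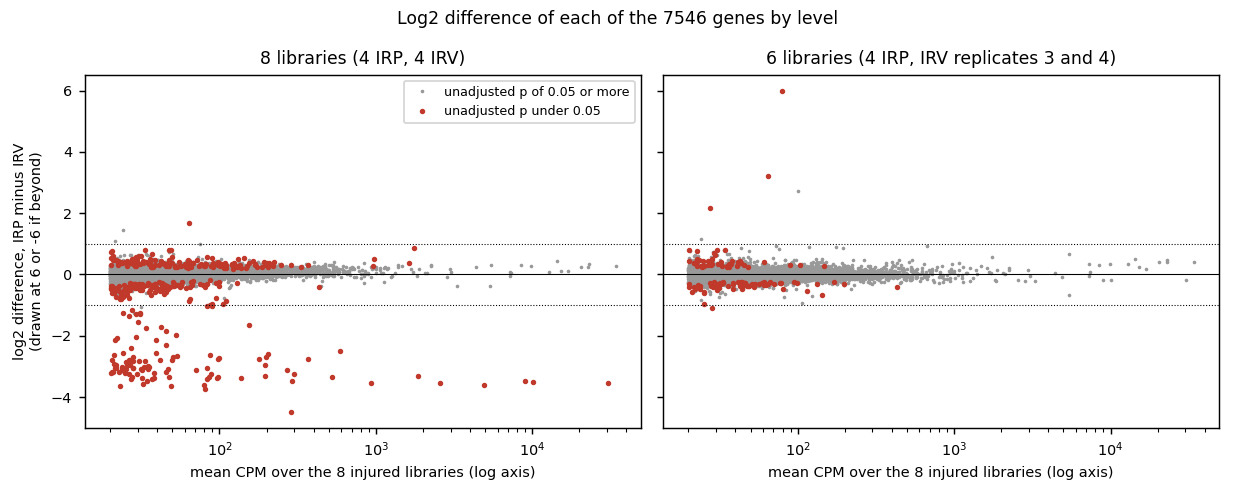
Log2 difference IRP minus IRV (y axis) against mean CPM on a log axis (x axis) for the 7546 genes, with 8 libraries on the left and 6 on the right; red points have an unadjusted p under 0.05 and dotted lines mark a 2-fold change. The cloud of red points below -2 on the left, with 110 genes past 1 in size in all, is gone on the right, where 6 genes pass 1.

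The deep and the shallow vehicle libraries differed from each other at more genes than the treatment groups did. IRV replicates 3 and 4 against IRV replicates 1 and 2 gave 227 higher and 193 lower of the 7546 genes (edgeR, adjusted p under 0.05), where 1.78% of all 15126 genes tested were higher and 16.4% lower. The median SD of log2 CPM over the 7546 genes was 0.16 among the IRP libraries, 0.23 among the 4 IRV libraries and 0.096 between the deep IRV libraries. Pairs of libraries showed the same. The median absolute log2 difference of a gene was 0.135 between the deep IRV libraries and 0.114 to 0.242 between an IRP and a deep IRV library. Within IRP it ran from 0.117 to 0.270, the highest value being that of replicates 1 and 2. Between IRV replicate 1 and the other vehicle libraries it was 0.289 to 0.314. The distances between IRP and deep IRV libraries thus fell almost wholly within the range of those among IRP libraries.

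Genes of the PARP pathway itself were at similar levels in both groups. Parp1, the main target of PJ34, had 55.2, 46.7, 51.5 and 49.3 CPM in IRP replicates 1 to 4 and 46.3, 43.8, 49.8 and 50.1 CPM in IRV replicates 1 to 4. The groups overlapped, and the IRP mean was 50.7 ± 3.59 CPM against 47.5 ± 3.05 CPM (SD, n = 4). The log2 difference was 0.08 (95% interval -0.16 to 0.33; edgeR, adjusted p = 0.92), which keeps Parp1 mRNA between 0.894 and 1.26 times the vehicle level. Over the deep libraries it was 0.02 (-0.21 to 0.25). PJ34 blocks the enzyme, so mRNA levels do not report PARP activity. Parp2, the second DNA-damage PARP, fell below the level limit at 8.70 to 16.3 CPM in the injured libraries, and its difference was 0.00 (-0.58 to 0.58). Of 12 PARP family genes at 20 CPM or more, 8 differences were positive, 0 were called and all 12 were bounded within 1, with a median of 0.04, or -0.05 over the deep libraries. Tnks2, which encodes a tankyrase and had the highest level, differed by 0.07. Parp3 was the highest at 0.29 (-0.10 to 0.69) and Parp8 the lowest at -0.29 (-0.58 to -0.01; edgeR, adjusted p = 0.35). For Parp3 the values moved with depth. It had 26.6 to 37.8 CPM in IRP, 31.5 and 28.1 CPM in the deep and 17.5 and 16.4 CPM in the shallow IRV libraries, and over the deep libraries its difference was 0.03.

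Genes that remove ADP-ribose or work in base excision repair gave differences near 0. Their 7 members had a median of 0.06 over 8 libraries and -0.03 over 6, with all 7 bounded within 1 in both. Macrod2, an ADP-ribose hydrolase, differed by 0.09 (-0.30 to 0.49), and Lig3, the ligase of this repair pathway, by -0.03 (-0.32 to 0.26). NAD synthesis and use had 16 members, 13 of them positive, with a median of 0.12 and 15 bounded within 1. Slc25a51, the mitochondrial NAD+ transporter, differed by 0.01 (-0.24 to 0.25). Acmsd, which turns tryptophan breakdown away from NAD+ synthesis, was the highest of the list at 0.28 (-0.25 to 0.80). The lowest was Sirt5, a mitochondrial NAD+-dependent deacylase. Sirt5 had 9.55, 12.5, 12.2 and 18.0 CPM in IRP and 139.8, 121, 16.6 and 12.7 CPM in IRV replicates 1 to 4. Its IRV values split by depth, and the uninjured means of 146 and 150 CPM in NP and NV, whose libraries are all shallow, were like those of IRV replicates 1 and 2. The log2 difference was accordingly -2.30 (-3.47 to -1.12) over 8 libraries and -0.17 (-0.75 to 0.42) over 6. It was called over 8 libraries by DESeq2 at -2.44, and by edgeR without IRV replicate 3 at -2.72 and without IRV replicate 4 at -2.75. Scaling by library totals and no filter on low counts gave calls as well, at -2.13 and -2.09.

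Markers of tubular injury were high in both injured groups, and their differences under PJ34 did not pass the test. Havcr1 encodes kidney injury molecule 1, a receptor that injured proximal tubules put on their surface. It had 114, 21.7, 41.7 and 83.3 CPM in IRP replicates 1 to 4 and 118, 76.0, 115 and 133 CPM in IRV replicates 1 to 4. The lowest pair were IRP replicates 2 and 3, IRP replicate 1 reached the vehicle range, and the groups overlapped. The means were 65.2 ± 41.5 and 110.5 ± 24.2 CPM (SD, n = 4), against 2.74 CPM in NP and 5.63 CPM in NV. The log2 difference of -0.76 (-1.53 to 0.00) missed the threshold (edgeR, adjusted p = 0.38), and over the deep libraries it was -0.93 (-2.13 to 0.27). These data allow Havcr1 to be between 0.346 and 1.00 times the vehicle level over 8 libraries, and between 0.228 and 1.21 times over 6. The estimate ranged from -1.18 without IRP replicate 1 to -0.51 without IRP replicate 2, so that single IRP libraries moved it by more than 1.5 times.

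Other injury genes had differences nearer to 0. Lcn2, which encodes the secreted iron-binding protein NGAL, had 66.9, 19.0, 36.4 and 57.6 CPM in IRP and 40.1, 41.3, 55.1 and 48.1 CPM in IRV, a difference of -0.06 (-0.71 to 0.59). Again IRP replicate 2 was the lowest and IRP replicate 1 the highest of all 8. Spp1, which encodes osteopontin, had 3052, 1569, 2066 and 2482 CPM in IRP and 2365, 2037, 2631 and 2666 CPM in IRV, a difference of -0.08 (-0.44 to 0.28). Clu, the chaperone clusterin, differed by 0.17 (-0.18 to 0.53) and Vcam1, an adhesion molecule of unrepaired proximal tubules, by -0.17 (-0.76 to 0.43). Krt18, a keratin of stressed epithelium, was the highest of the list at 0.29 (-0.28 to 0.86). Of the 31 injury genes, 15 were positive and 0 were called, the median was 0.00 and 30 were bounded within 1. Over the deep libraries 7 were positive, the median was -0.16 and 24 were bounded within 1, with none called. In contrast, 27 of the 31 were called as higher in IRV than in uninjured vehicle kidney by edgeR, where 15.9% of all tested genes were. Their median was 1.82, although the NV libraries are all shallow, so depth and injury cannot be fully told apart in that comparison.

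**Figure D3:**
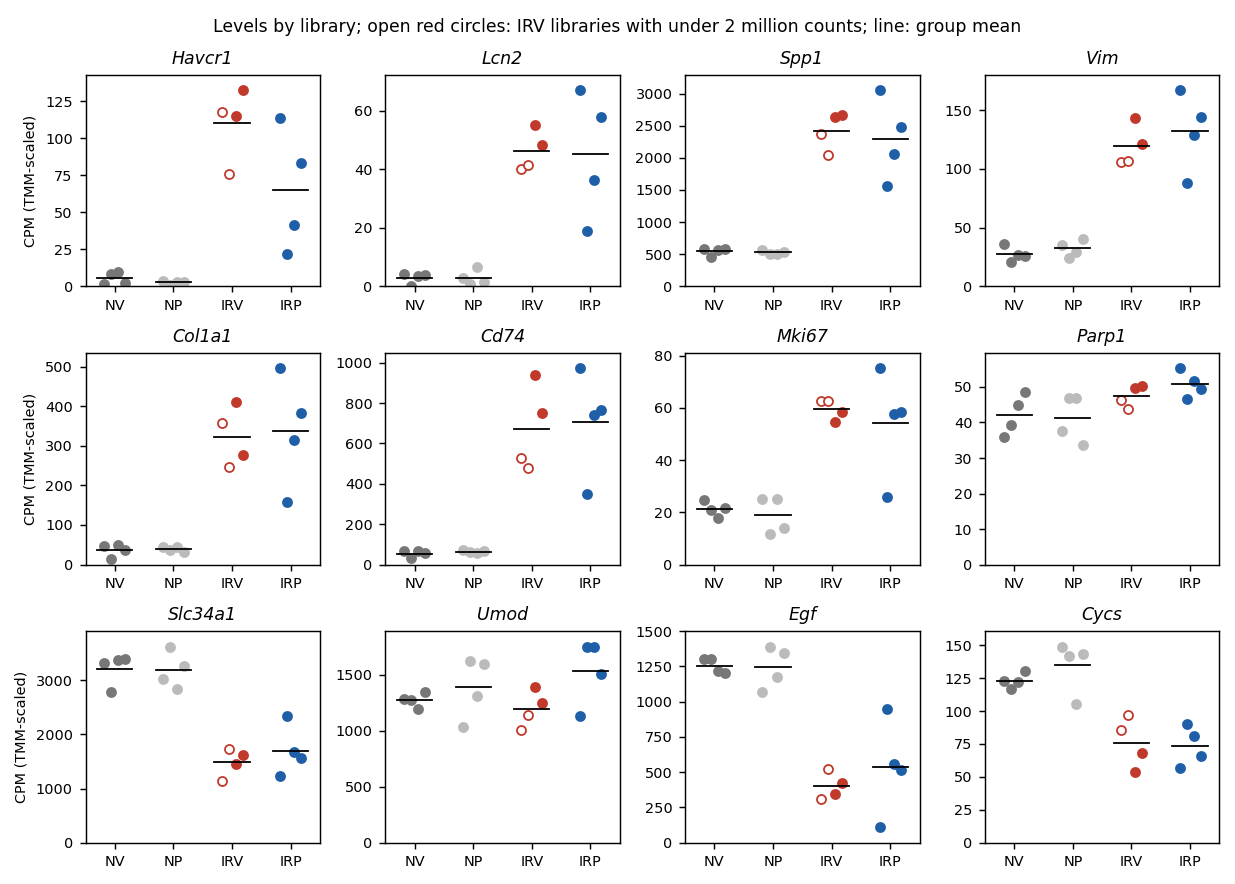
TMM-scaled CPM (y axis, from 0) of 12 genes in each library of groups NV, NP, IRV and IRP (x axis; replicates 1 to 4 from left to right in each group), with open circles for IRV replicates 1 and 2 and lines for group means. Havcr1 spans 21.7 to 114 CPM in IRP and 76.0 to 133 CPM in IRV, and in 7 of the 12 panels IRP replicates 1 and 2 stand at opposite ends of the injured range.

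Injury genes spanned a wider range among the IRP libraries than among the IRV libraries. The 31 injury genes summed to 8429, 4572, 6220 and 7237 CPM in IRP replicates 1 to 4 and to 6712, 5620, 7814 and 7241 CPM in IRV replicates 1 to 4. IRP replicate 1 was the highest and IRP replicate 2 the lowest of the 8, and the IRV libraries all lay between them. Proximal tubule genes ran the other way, at 17657, 34281, 23400 and 22391 CPM in IRP and 17339, 24754, 21264 and 25036 CPM in IRV. Macrophage and monocyte genes summed to 3056, 1390, 2258 and 2238 CPM in IRP and to 1792 to 2659 CPM in IRV. Mitochondrial genes took 13.0%, 25.1%, 19.1% and 17.5% of the counts in IRP replicates 1 to 4 and 10.5% to 17.9% in IRV. IRP replicate 1 also had the most RNA of adipose genes. Of the 19 adipose, adrenal and muscle genes in the table, 4 reached 20 CPM, and together the 19 summed to 643 CPM there and to 197 to 346 CPM in the other injured libraries. Its adipose markers Adipoq and Plin1 were at 25.3 and 24.8 CPM against 7.20 to 14.6 and 2.64 to 10.6 CPM. The adrenal genes Cyp11a1, Cyp11b1 and Star were each at or under 5.14 CPM, with counts in 5 to 7 of the 8 libraries, and Hsd3b1 had none in any. The part of such tissue in the results was not tested. In whole kidney, fewer cells of a type and less RNA per cell cannot be told apart.

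**Figure D4:**
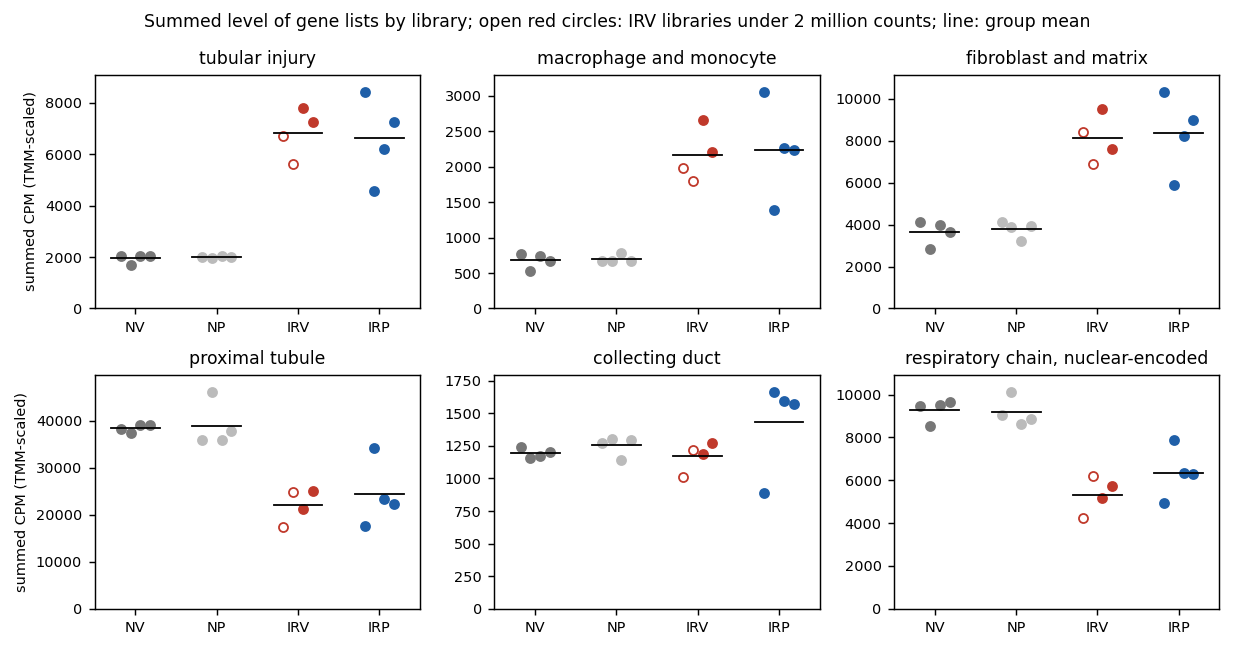
Summed TMM-scaled CPM (y axis, from 0) of 6 gene lists in each library by group (x axis), with open circles for IRV replicates 1 and 2 and lines for group means. Tubular injury genes run from 4572 to 8429 CPM within IRP, a range that holds all 4 IRV libraries.

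Genes of the kidney tubule mostly had small positive differences, and none passed the test. In the proximal tubule list 47 of 52 genes were positive, where 67.1% of all 7546 genes were. The list median was 0.21, against 0.06 for all 7546 genes and 0.02 for all genes tested, and 51 were bounded within 1. At an unadjusted p under 0.05, 2 were higher and 0 lower, where 1.39% and 12.1% of all tested genes were. The median was 0.13 over the deep libraries and -0.01 without IRP replicate 2, so the positive median rested on that library. Slc34a1 differed by 0.19 (-0.19 to 0.58) and Lrp2, the endocytic receptor megalin, by 0.05 (-0.36 to 0.47). Kap, an androgen-regulated kidney protein with the highest level in the list, differed by 0.06 (-0.41 to 0.54). Slc22a8, an organic anion transporter, was the highest at 0.44 (0.04 to 0.84; edgeR, adjusted p = 0.28) and Slc22a30 the lowest at -0.32 (-0.78 to 0.14).

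The distal segments had mostly positive differences too. In the loop of Henle and distal tubule list 25 of 26 genes were positive with a median of 0.29, where 67.1% of all 7546 genes were positive. Over the deep libraries all 26 were positive with a median of 0.26, where 50.6% of the 7546 were. Fewer were bounded here, 20 over 8 libraries and 11 over 6. The median was positive in all 18 alternative settings, from 0.07 to 0.47, and 0.16 over the deep libraries scaled by their totals, a scaling that moves the median of all tested genes there from 0.00 to -0.06. Umod had 1133, 1751, 1753 and 1512 CPM in IRP and 1005, 1140, 1396 and 1251 CPM in IRV. IRP replicates 2 to 4 were above all IRV libraries and IRP replicate 1 was below 3 of them. The difference was 0.36 (0.00 to 0.71; edgeR, adjusted p = 0.36), and 0.22 (-0.29 to 0.73) over the deep libraries. Egf, the epidermal growth factor precursor of the distal convoluted tubule, had 114, 951, 559 and 517 CPM in IRP and 312, 521, 348 and 423 CPM in IRV, a difference of 0.41 (-0.37 to 1.20). Its IRP values spanned more than the whole IRV range. Bsnd, the chloride channel subunit barttin, was the highest of the list at 0.67 (0.18 to 1.15; edgeR, adjusted p = 0.13).

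Collecting duct genes were positive in 18 of 18 cases over 8 libraries, where 67.1% of all 7546 genes were. Their median was 0.31 over 8 libraries and 0.25 over 6. At an unadjusted p under 0.05, 3 were higher over 8 libraries, where 1.39% of all tested genes were. Over the deep libraries 0 were, and 9 of the 18 were bounded within 1. Summed, they stood at 887, 1662, 1596 and 1573 CPM in IRP and at 1014, 1221, 1187 and 1272 CPM in IRV. IRP replicates 2 to 4 were above all vehicle libraries and IRP replicate 1 was below all of them. Without IRP replicate 1 the median was 0.56. Aqp6, a water channel of intercalated cells, had 22.8, 51.1, 56.1 and 79.2 CPM in IRP and 24.7, 32.2, 32.8 and 29.0 CPM in IRV. This gave the highest difference of the list, 0.79 (0.24 to 1.34; edgeR, adjusted p = 0.12), and 0.76 (-0.18 to 1.69) over the deep libraries. With no filter on low counts it was called at 0.89 (edgeR, adjusted p = 0.033). Aqp2, the vasopressin-regulated water channel of principal cells, differed by 0.55 (-0.30 to 1.40), and Tfcp2l1, a transcription factor of this segment, by 0.16 (-0.11 to 0.43). For 6 of the 18 genes, a 2-fold difference lay within the interval over 8 libraries.

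Mitochondrial and metabolic genes had small positive differences as well. Over 8 libraries 47 of 48 nuclear genes of the respiratory chain were positive, where 67.1% of all 7546 genes were. Their median was 0.24 over 8 libraries and 0.20 over 6. The median was 0.11 over the deep libraries scaled by totals and 0.10 to 0.37 over the 18 alternative settings, with the lowest without IRP replicate 2. Of the 48 genes, 9 were higher at an unadjusted p under 0.05 over 8 libraries, where 1.39% of all tested genes were. Over the deep libraries 1 of the 48 was. Over 8 libraries 0 were called and all 48 were bounded within 1. Atp5b, the catalytic beta subunit of ATP synthase, had 786, 1349, 1028 and 1050 CPM in IRP and 736, 1028, 850 and 946 CPM in IRV, a difference of 0.24 (-0.08 to 0.57). Cox7b, a small subunit of cytochrome oxidase, was the highest at 0.40 (0.04 to 0.76; edgeR, adjusted p = 0.28). Cycs, which encodes cytochrome c, was the lowest at -0.02 (-0.38 to 0.35). The 13 genes of the mitochondrial genome had a median of 0.23 over 8 libraries and 0.40 over 6, but -0.11 without IRP replicate 2. Their intervals were wide over the deep libraries, where 1 of the 13 was bounded within 1. mt-Co1, a core subunit of cytochrome oxidase, differed by 0.27 (-0.22 to 0.76).

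Related lists gave like values over 8 libraries, and the medians of the next 4 were positive in all 18 alternative settings and over the deep libraries scaled by totals. Over the deep libraries they were 0.11 for the citric acid cycle, 0.15 for fatty acid oxidation, 0.15 for glycolysis and 0.08 for antioxidant genes. The antioxidant median was 0.02 over the deep libraries scaled by totals. All 23 citric acid cycle genes were positive with a median of 0.19, where 67.1% of all 7546 genes were positive. In fatty acid oxidation 36 of 40 were positive with a median of 0.19. Cyp4a14, a fatty acid hydroxylase, was the lowest at -0.39 (-1.32 to 0.54). Glycolysis genes were positive in 18 of 19 cases with a median of 0.19. Antioxidant genes had a median of 0.17, led by Gpx4, the glutathione peroxidase that guards against lipid peroxidation. Gpx4 had 154, 219.8, 189 and 178 CPM in IRP and 110.0, 162, 139 and 148 CPM in IRV, with only IRP replicate 1 inside the vehicle range. Its difference was 0.40 (0.10 to 0.70; edgeR, adjusted p = 0.15) and 0.37 (0.00 to 0.74) over the deep libraries, and DESeq2 called it over 8 libraries at 0.39.

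**Figure D5:**
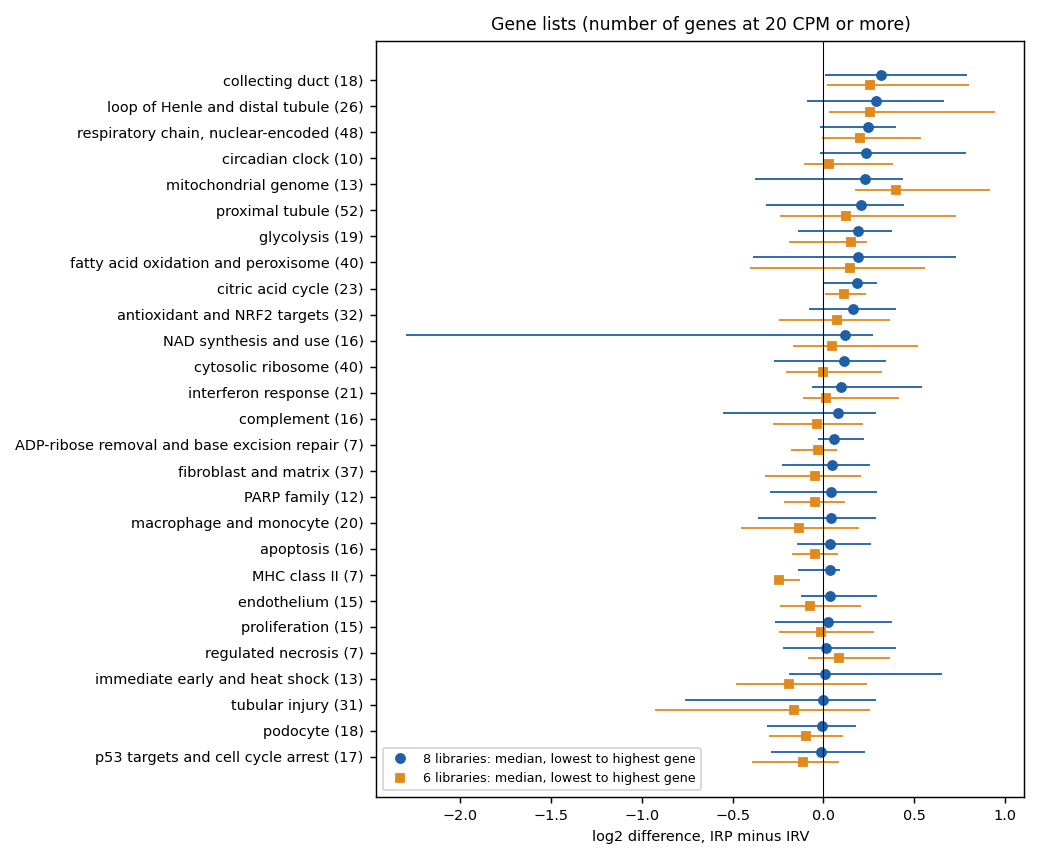
Median (point) and range from lowest to highest gene (line) of the log2 difference IRP minus IRV (x axis) in each gene list with 7 or more genes at 20 CPM (y axis, number of genes in brackets), for 8 and 6 libraries. Lists of tubule segments, the respiratory chain and the mitochondrial genome sit at 0.21 to 0.31 over 8 libraries and at 0.13 to 0.40 over 6. Lists of injury, matrix and immune genes sit at 0.00 to 0.10 over 8 libraries and at -0.25 to 0.01 over 6.

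No fibrosis or inflammation gene was called between the groups over 8 or 6 libraries, and the medians of these lists changed sign with the setting. All 37 fibroblast and matrix genes were bounded within 1 over 8 and over 6 libraries, with medians of 0.05 and -0.05 and 0 calls, where edgeR called 36 of the 37 as higher in IRV than in NV, against 15.9% of all tested genes. Col1a1, a chain of type I collagen, had 496, 157, 314 and 382 CPM in IRP and 357, 247, 412 and 278 CPM in IRV, a difference of 0.06 (-0.55 to 0.67). IRP replicates 1 and 2 again held the extremes. Vim, an intermediate filament protein, differed by 0.13 (-0.25 to 0.52), Dcn, the proteoglycan decorin, by 0.26 (-0.10 to 0.61), and Lox, which cross-links collagen, by -0.23 (-0.72 to 0.26).

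All 20 macrophage and monocyte genes were bounded within 1 over 8 libraries and 15 over 6, with medians of 0.04 and -0.13. Apoe, an apolipoprotein that macrophages make, differed by 0.03 (-0.43 to 0.49). C1qa, a complement subunit of resident macrophages, was the highest at 0.29 (-0.31 to 0.89) and Ccr2, the chemokine receptor of incoming monocytes, the lowest at -0.36 (-0.87 to 0.15). Cd74, the invariant chain of MHC class II, had 972, 351, 739 and 767 CPM in IRP and 527, 480, 938 and 751 CPM in IRV, a difference of 0.07 (-0.49 to 0.62). The 7 MHC class II genes had a median of 0.03 over 8 libraries and -0.25 over 6, where all 7 were negative and none was called. Complement and interferon lists had medians of 0.08 and 0.10. Ifit3, an interferon-induced antiviral protein, was the highest interferon gene at 0.54 (0.11 to 0.98; edgeR, adjusted p = 0.18), and it was called without IRV replicate 4 at 0.75 (edgeR, adjusted p = 0.029).

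Lymphocyte and plasma cell genes were poorly bounded, with 1 gene bounded within 1 over 8 libraries and 0 over 6. Only 4 of 23 such genes reached 20 CPM, 3 of them immunoglobulin segments, whose counts are uncertain because similar segments share reads. Ighg2c, a heavy chain constant segment, had 40.5, 27.5, 224 and 25.9 CPM in IRP and 18.5, 79.6, 5.25 and 11.6 CPM in IRV. Its difference was 1.67 (0.16 to 3.19; edgeR, adjusted p = 0.32) over 8 libraries and 3.22 (0.84 to 5.60) over 6, and it was called in neither. In each group 1 library stood far above the rest. Ighm, the IgM heavy chain, differed by -0.36 (-1.44 to 0.72) over 8 libraries and by 0.91 (-0.12 to 1.95) over 6. IRV replicate 2 had 317 CPM, against 43.0 to 60.6 CPM in the other vehicle libraries, and without it the difference was 0.82. None of the 11 neutrophil genes in the table reached 20 CPM. They summed to 6.70 to 14.9 CPM in IRP, to 13.9 and 8.70 CPM in the deep IRV libraries and to 45.2 and 45.0 CPM in the shallow ones.

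Cell cycle and death genes gave no call over 8 or 6 libraries. The study's title speaks of senescence, and Cdkn1a encodes p21, the p53-induced inhibitor that halts the cycle in senescent cells. Cdkn1a had 22.0, 8.70, 12.3 and 18.2 CPM in IRP and 21.6, 18.8, 14.1 and 14.2 CPM in IRV, under the level limit, and differed by -0.10 (-0.72 to 0.52) over 8 libraries and 0.12 (-0.61 to 0.85) over 6. All 17 genes of the p53 and arrest list that reached 20 CPM were bounded within 1 in both comparisons, with medians of -0.01 and -0.11. Gadd45a, a stress-induced p53 target, was the lowest at -0.29 (-0.72 to 0.14), and Igfbp7, a secreted factor of senescent cells, the highest at 0.23 (-0.06 to 0.52). All 15 proliferation genes were bounded within 1 as well, with medians of 0.03 and -0.02. Mki67, the marker of cycling cells, had 75.2, 25.7, 57.7 and 58.3 CPM in IRP and 62.7, 62.6, 54.7 and 58.3 CPM in IRV. Apart from IRP replicate 2, its values were close together, and the difference was -0.12 (-0.62 to 0.38). Ccnd1, the G1 cyclin D1, was the highest at 0.38 (0.07 to 0.68; edgeR, adjusted p = 0.19) and Cdk6, its partner kinase, the lowest at -0.27 (-0.61 to 0.08).

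All 16 apoptosis genes and all 7 regulated necrosis genes were bounded within 1 in both comparisons. Their medians were 0.03 and 0.01 over 8 libraries. Mcl1, a survival protein of the BCL-2 family, differed by 0.12 (-0.10 to 0.34) and Casp9, the initiator caspase of the mitochondrial pathway, by -0.15 (-0.48 to 0.19). Endothelial and podocyte lists were bounded throughout too, with medians of 0.03 and -0.01. Cytosolic ribosome genes, many of which share reads with pseudogenes, had a median of 0.12 over 8 libraries and 0.00 over 6. The circadian clock list went from 0.23 to 0.03. Its highest gene, the clock output factor Dbp, had 28.3 to 76.1 CPM in IRP, 32.8 and 46.8 CPM in the deep IRV and 7.20 and 20.1 CPM in the shallow IRV libraries, and the labels give no hour of collection. Dbp was called without IRV replicate 4 at 1.18 (edgeR, adjusted p = 0.049). The immediate early and heat shock list had medians of 0.01 and -0.19.

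Genes whose groups did not overlap differed by modest amounts in most of the named cases below, but not in all genes. The unnamed gene model Gm21897, also without overlap, differed by -3.47 over 8 libraries and by -0.62 over 6. Without overlap between the groups, 144 of the 7546 genes lay higher in all IRP libraries than in all IRV libraries, where this held for 1.51% of all genes tested, and 83 lay lower, where it held for 1.92%. With an unadjusted p under 0.05 as well, these were 45 and 46. The largest higher difference among the named genes of those 45 was that of Selenow, a small selenoprotein. Selenow had 28.6, 22.3, 28.0 and 28.3 CPM in IRP and 21.6, 15.2, 20.9 and 18.3 CPM in IRV, a difference of 0.50 (0.14 to 0.86; edgeR, adjusted p = 0.13). Over the deep libraries it was 0.46 (0.15 to 0.76; edgeR, adjusted p = 0.99986). Mt1, the metal-binding metallothionein, had 32.3, 39.9, 34.7 and 37.04 CPM in IRP and 20.6, 21.9, 30.1 and 26.9 CPM in IRV, a difference of 0.48 (0.16 to 0.79) over 8 libraries and 0.33 (0.04 to 0.63) over 6. Without IRV replicate 3 it was called at 0.57 (edgeR, adjusted p = 0.039).

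The next genes were of mixed function. Cdkl1, a kinase related to the cyclin-dependent kinases, differed by 0.47, Il11ra1, the receptor of interleukin 11, by 0.47, and Bod1, a chromosome segregation factor, by 0.44. Mrpl30, a mitochondrial ribosomal protein, Phb, the mitochondrial scaffold prohibitin, and Dus1l, a tRNA-modifying enzyme, followed at 0.43, 0.43 and 0.42. Over the deep libraries these 6 genes stood between 0.30 and 0.44. The choice of genes without overlap fixes their direction there.

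The 8 genes named at the lower end were likewise limited to those without overlap at an unadjusted p under 0.05, so genes that overlap, such as Sirt5, had larger differences. They fell into different patterns. Kcnq1ot1, a long noncoding RNA that lies antisense to Kcnq1, had 18.2, 21.6, 14.5 and 18.8 CPM in IRP and 153, 118, 22.0 and 26.1 CPM in IRV. Whether the counting used strand is not given, so its reads and those of Kcnq1 cannot be told apart. Its difference went from -1.98 (-2.93 to -1.04) over 8 libraries to -0.40 (-0.80 to 0.00) over 6. Alms1, a protein of the ciliary base, went from -0.79 to -0.25, Klf13, a transcription factor, from -0.76 to -0.21, Pign, an enzyme of GPI anchor synthesis, from -0.58 to -0.19, and Nvl, a ribosome assembly factor, from -0.57 to -0.28. DESeq2 called 4 of these 5 over 8 libraries, all but Pign, and edgeR called all 5 without IRV replicate 3, at -0.70 to -2.37, and without IRV replicate 4, at -0.70 to -2.35. In these 5 genes the shallow IRV libraries were the high ones, and the uninjured means of Kcnq1ot1 (148 and 145 CPM) and Klf13 (161 and 154 CPM) were near theirs. Alms1 had 12.0 to 15.3 CPM in IRP and 17.3 and 15.3 CPM in the deep IRV libraries. It passed the level limit with its 39.1 and 34.6 CPM in the shallow ones. Within IRV, the deep minus shallow log2 difference was -2.43 for Kcnq1ot1, -1.12 for Alms1 and -0.98 for Klf13. With depth as a covariate, the IRP minus IRV differences of the 5 genes lay between -0.40 and -0.19. The cause of the split within IRV was not tested.

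In the other three the deep libraries gave values nearer to those of all 8. The choice of genes without overlap fixes their direction there as well. Cyyr1, a membrane protein of unclear function, had 17.2, 15.0, 15.9 and 13.9 CPM in IRP and 33.9, 23.1, 23.9 and 19.6 CPM in IRV. The rule of no overlap put every IRP value under every IRV value. The difference was -0.63 (-0.96 to -0.31; edgeR, adjusted p = 0.073) over 8 libraries and -0.48 (-0.80 to -0.17; edgeR, adjusted p = 0.99986) over 6. Like most of the genes above, it was called by DESeq2 over 8 libraries, at -0.61, and by edgeR without IRV replicate 3, at -0.66, and without IRV replicate 4, at -0.76. Socs2, a suppressor of growth hormone signalling, had 19.9, 17.4, 23.6 and 25.7 CPM in IRP and 30.8, 33.4, 30.2 and 28.4 CPM in IRV. Its shallow and deep vehicle values were alike, and the difference was -0.49 (-0.87 to -0.11; edgeR, adjusted p = 0.16) over 8 libraries and -0.44 (-0.80 to -0.07) over 6. Zfp697, a zinc finger protein, went from -0.50 to -0.38.

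The difference between PJ34 and vehicle was also set against that in uninjured kidney. The interaction, which subtracts the NP minus NV difference from the IRP minus IRV difference, called no gene (edgeR, smallest adjusted p = 0.33), with 187 of the 7546 genes positive and 236 negative at an unadjusted p under 0.05 (2.48% and 3.13%), where 1.95% and 9.43% of all tested genes were. NP against NV alone, all of them shallow libraries, called none either and bounded 6930 of the 7546 genes within 1. For Parp1 the interaction was 0.13 (-0.27 to 0.52) and for Umod 0.23 (-0.27 to 0.73). For Havcr1 it was 0.28 (-2.04 to 2.60), an interval set by the few Havcr1 counts of uninjured kidney. Mt1 had 0.63 (0.11 to 1.15; edgeR, adjusted p = 0.34) and Cyyr1 -0.82 (-1.34 to -0.30; edgeR, adjusted p = 0.33). Both were named because their IRP and IRV values did not overlap. The interaction holds that same difference, so intervals away from 0 follow in part from the choice and do not show a difference particular to injury.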

How the data were processed

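RNA was sequenced from whole mouse kidney after poly(A) selection with a directional kit, per the labels' protocols. The deposited table holds expected counts, whole numbers per gene, for 16 libraries. The submitters' processing notes name the build GRCm39 and, as tools, Salmon 1.3.0, DESeq2 1.30.1, Trim Galore 0.6.6 and FastQC 0.11.3. The sources used here do not say whether molecular identifiers were used. Salmon shares reads among similar transcripts, so near-identical genes are uncertain. Symbols matched 40276 of 40472 IDs.

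The edgeR 4.0.16 quasi-likelihood test (R 4.3.3) ran on TMM-scaled counts of genes passing filterByExpr, with group as the only term, over 16 libraries, and again over 6. Adjusted p-values are Benjamini-Hochberg values over all tested genes, with a threshold of 0.05. Intervals use the fit's standard error, which is never below Poisson error, and its degrees of freedom. CPM values use TMM-scaled totals, except in the level limit of 20 and the depth comparison, which use column totals. CPM is not per length, so levels are compared between libraries, not genes. The analysis was tested on simulated data in which shallow and deep libraries had the same make-up, so that test does not cover the difference in make-up seen here. limma 3.58.1 and DESeq2 1.42.0 were alternatives.

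The gene set, the 31 gene lists and the rules were chosen with earlier results of these data known. Named genes are 20 set by choice, the 8 highest and 8 lowest differences among named genes without overlap at an unadjusted p under 0.05 (pseudogenes, receptors and immunoglobulin segments left out), and per list the most abundant, highest and lowest gene. Some genes that this rule names are not reported here. The limit of 20 CPM fell between genes at 19.9919 and 20.0 CPM. No pair of libraries in a group agreed within sampling noise.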

Additional observations from a re-analysis of the deposited data

Results flagged for a closer look

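In 17 of 224 groups of 4 libraries (112 named genes, IRP and IRV), 1 library stood apart from the other three by a gap above Dixon's critical share of the group's range. Chance flags about 1 in 20 groups. In IRV replicate 1, the shallowest injured library, Phb was at 30.8 CPM (others 49.2 to 50.4), Ccnd1 at 66.8, Bsnd at 12.3 (others 26.1 to 27.6) and Col4a4 at 229 CPM, all low, while Zfp697 at 51.4 and C3ar1 at 48.3 CPM (others 15.8 to 20.9) were high. In IRV replicate 2, Ighm at 317 and Cfd at 61.4 CPM were high. In IRP replicate 1, Car3 at 255 CPM (others 67.3 to 96.1) and Cfd at 116 CPM (others 20.8 to 28.7) were high, as was Klf13 at 64.4 CPM, and Atp6v1g3 was low at 17.0 CPM (others 39.8 to 43.9). In IRP replicate 2, Selenow was low at 22.3 and Ier5 at 13.2 CPM. Ighg2c was high in IRP replicate 3 at 224 CPM (others 25.9 to 40.5). In IRP replicate 4, Hsp90aa1 at 356 CPM was high and Zfp697 at 18.7 CPM was low. The cause of these values was not tested.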

How the results depend on the processing

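Called genes over 8 libraries numbered 0 with edgeR, and still 0 with only the injured libraries in the fit, with depth as a covariate, with DESeq2 size factors and with limma-voom. Library totals as scaling gave 422 calls (1 higher, 421 lower), 94 of them among the 7546 genes, no filter on low counts gave 1093 (9 higher, 1084 lower) and 109, and DESeq2 gave 1282 (5 higher, 1277 lower) and 122. Leaving out 1 library gave 0 to 1460 calls, and 0 to 150 among the 7546. Over 6 libraries, leaving out 1 gave no call, and DESeq2 gave 4 calls, 1 among the 7546. The count of 7291 genes bounded within 1 stayed between 7176 and 7380 under the settings that kept the level limit and the interval; it was 3605 of 3685 genes at a limit of 50 CPM and 9574 of 10248 at 10 CPM. The widening for all genes, which gave 2734, and the removal of the 11 gene models with the receptors, which gave no call, were chosen after seeing the data. The cause of these changes was not tested. Over named genes and settings, 1962 values stayed within the replicate SD and on their side of the threshold, 25 moved by more and 29 passed the threshold, in 12 genes, and no called value changed sign; of list medians 529 stayed and 11 moved. With the replicate number as a block, edgeR called 0 genes, with 1754 at an unadjusted p under 0.05 against 1832 without it. Deviations of same-numbered libraries from their group means correlated at 0.04, 0.36, -0.14 and -0.18. These values cannot settle whether the numbers pair the libraries, because the IRV deviations also hold the split by depth. Depth limits genes near 20 CPM, where IRV replicate 1 holds 19.5 counts.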
